A study of Mus musculus with 4 samples.

Results

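The 10 genes examined here write, erase or protect DNA methylation in the mouse: Dnmt1, Uhrf1, Dnmt3a, Dnmt3b, Dnmt3l, Tet1, Tet2, Tet3, Dppa3 and Zfp57. They were chosen by name for these roles, with earlier results of these data known, and all 10 were found among the 16861 genes listed in each library. RNA was sequenced from fully grown oocytes arrested at the germinal vesicle (GV) stage, whose chromatin is at first diffuse and leaves the nucleolus free (non-surrounded nucleolus, NSN) and later condenses into a ring around it (surrounded nucleolus, SN). There were 2 NSN and 2 SN libraries, each made from a pool of 15 oocytes by Smart-seq2, a full-length cDNA method primed on the poly(A) tail. Both groups came from 3-week-old female C57BL/6J mice with no treatment of the animals named. The oocytes were freed of cumulus cells by pipetting and sorted by eye after Hoechst staining in medium with milrinone. Those that fitted neither class were discarded. The sort by chromatin shape is thus the only stated difference between the groups, which are single time points and not the same cells followed over time. Nothing in the labels says that the 2 libraries of a group came from different mice, so every p-value measures the spread between libraries, which may be technical.

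DNA methylation in mammals is laid down on CpG dinucleotides by the de novo enzymes Dnmt3a and Dnmt3b and is copied to the new strand at replication by Dnmt1, which Uhrf1 brings to hemimethylated sites. In the growing, non-dividing oocyte most of the methylome, including the maternal imprints, is set by Dnmt3a together with its catalytically inactive cofactor Dnmt3l. The Tet enzymes oxidise 5-methylcytosine as a step towards its removal. Dppa3 (also called Stella or PGC7) keeps Uhrf1 out of the oocyte nucleus and guards methylation marks in the zygote. The zinc finger protein Zfp57 guards them at imprinted loci.

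Levels are given as FPKM, the read pairs on the exons of a gene scaled to gene length and to library depth, so that they can be compared between genes. Library totals recovered from the FPKM ran from 17069772 to 17998361 read pairs, and at that depth 3 read pairs on a gene of 1 kilobase give an FPKM of 0.167 to 0.176. Read pairs amplified over 18 PCR cycles are not independent molecules, so the number of pairs behind a value bears on counting error only. All 14 oocyte markers examined were present, and their summed FPKM was 24715 and 23248 in NSN and 17082 and 16596 in SN. Kit alone was higher in both SN libraries, at 20.1 and 20.7 against 16 and 17.2 in NSN. Oosp1 overlapped between the groups, and the others were lower in both SN libraries. The part of this difference in the results was not tested. Of 12 granulosa and cumulus cell markers, 9 were listed (not Amh, Amhr2 and Foxl2), with a summed FPKM of 9.61 and 13.7 in NSN and 14.0 and 13.8 in SN. The highest of them was Cyp19a1, with 5.81 and 8.06 in NSN and 8.38 and 8.22 in SN. None of 4 blood and macrophage markers was listed. Genes were tested where their FPKM averaged 0.5 or more, and over these 11672 genes the median difference between SN and NSN was 0.14 on the log2 scale and 66.7% of genes were above 0. FPKM is a share of each library, so a loss of RNA per oocyte and a shift in its composition cannot be told apart.

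Zfp57 was by far the most abundant, with a mean FPKM of 1451 over the 4 libraries, and only 48 listed genes were above it. Dppa3 followed at 369, Dnmt1 at 194 and Uhrf1 at 95.5, so that both protectors and both maintenance genes were above 95.9% or more of all listed genes. Tet3 (44.2), Dnmt3l (11.9) and Dnmt3a (7.99) were in the middle, and Dnmt3b (1.17), Tet1 (0.464) and Tet2 (0.135) were at the low end. No pair of neighbours in this order overlapped in range over the 4 libraries. The closest were Dnmt3l, at 9.18 to 13.9, and Dnmt3a, at 7.35 to 8.71, whose means differed 1.49-fold. The widest step was the 6.82-fold gap from Dnmt3a to Dnmt3b.

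**Figure D1:**
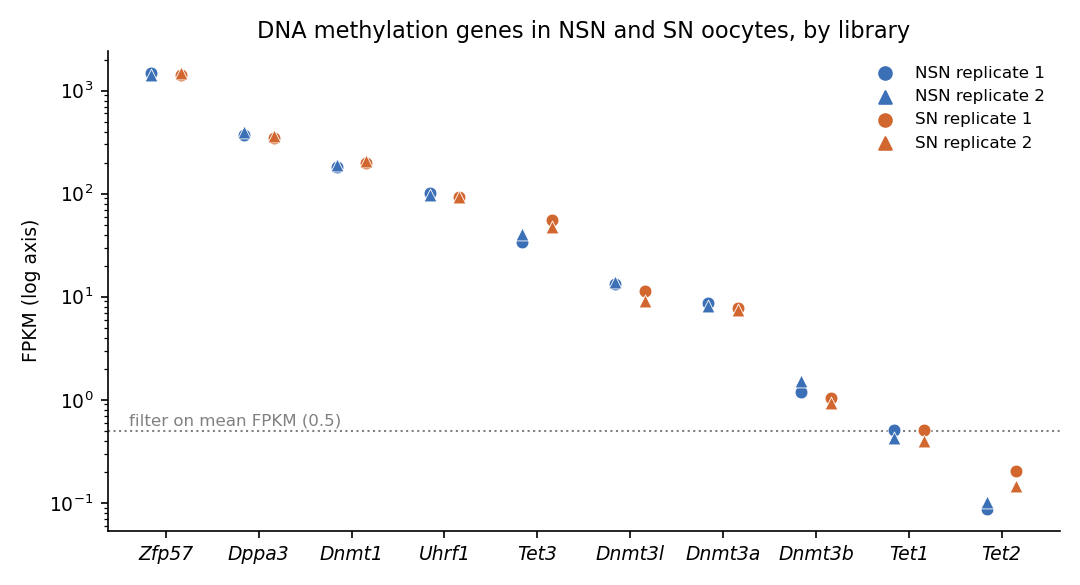
FPKM (log axis) of the 10 genes in each library, ordered by mean level, with circles for replicate 1 and triangles for replicate 2 of NSN (blue) and SN (orange) oocytes. The order from Zfp57 (1451) to Tet2 (0.135) is much wider than any difference between the groups, and Tet1 and Tet2 have means under the dotted line at an FPKM of 0.5.

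SN was compared with NSN by limma on log2(FPKM + 0.5) over all 11672 genes, and a gene was called at a Benjamini-Hochberg adjusted p under 0.05 with a fold change of at least 1.2. None of the 8 genes of the set that were tested was called, against 926 of all genes tested (7.93%), of which 695 (5.95%) were higher and 231 (1.98%) lower in SN. With libraries scaled to the median gene, the calls over all genes were 78 higher and 179 lower, and none was among the 8. An unadjusted p under 0.05 was reached by 2 of the 8, Tet3 with a higher and Dnmt3l with a lower level in SN, where 31.7% of all genes reached it, 23.8% with a higher and 7.86% with a lower level. This count moved with the processing. With libraries scaled to the median gene it was 6 of the 8, with Uhrf1, Dnmt3a, Dnmt3b and Dppa3 also lower in SN, where 27.1% of all genes reached it. It was 4 with quantile normalization, where 3158 of the 11672 genes reached it, and 4, without Tet3, with length correction, where 3133 did. Without NSN replicate 2 the log2 difference was 0.60 for Tet3 and -0.36 for Dnmt3l. Without SN replicate 2 it was 0.58 for Tet3 and -0.25 for Dnmt3l. The 2 SN libraries lay on one side of the 2 NSN libraries for 8 of the 10 genes, 3 higher (Dnmt1, Tet2, Tet3) and 5 lower (Uhrf1, Dnmt3a, Dnmt3b, Dnmt3l, Dppa3), against 55.5% of all listed genes, 38% higher and 17.5% lower. The median log2 difference of the 8 tested genes was -0.11, below the 0.14 of all genes. For 1 gene taken alone, 2 libraries against 2 allow an exact permutation test no two-sided p under 0.333.

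**Figure D2:**
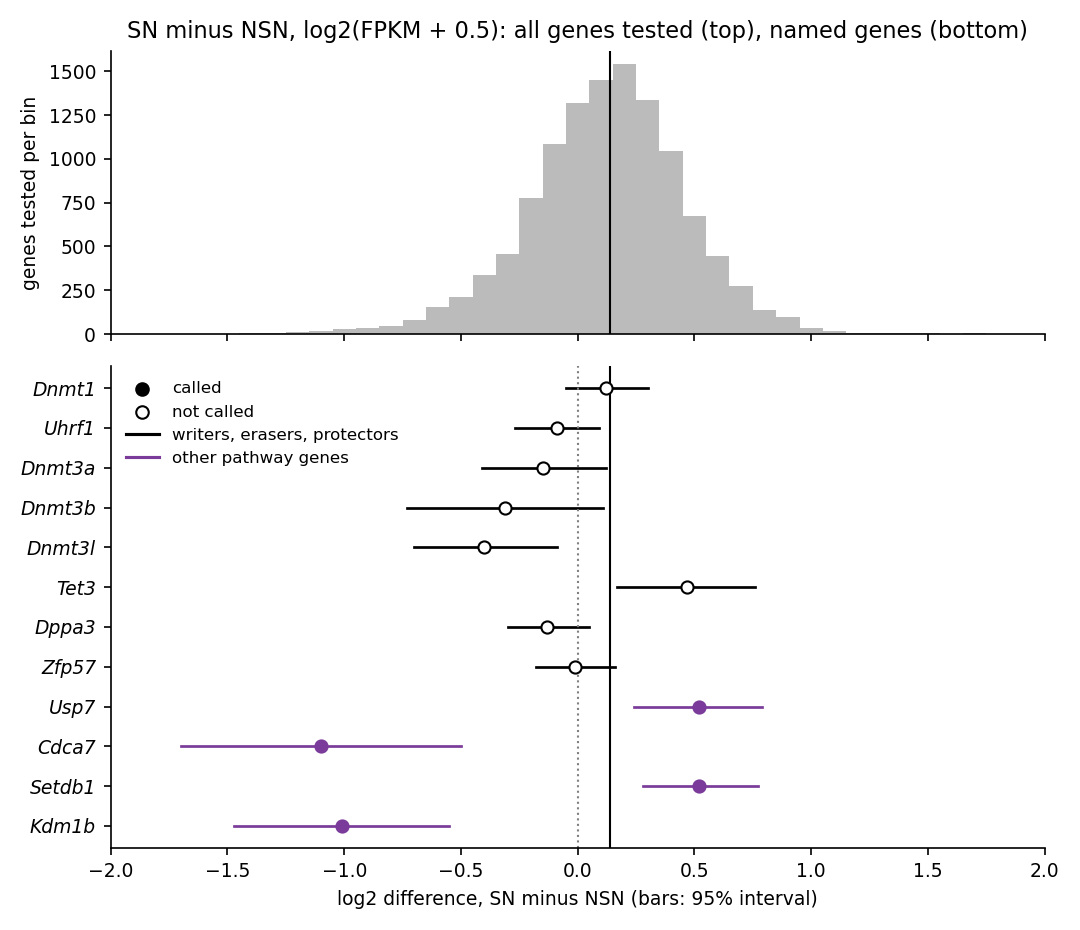
The top panel counts all tested genes by their log2 difference, SN minus NSN, of FPKM + 0.5, and the bottom panel gives the difference of the 8 tested writers, erasers and protectors (black) and of the 4 called pathway genes (purple) with 95% intervals. Tet3 (0.47) is to the right and Dnmt3l (-0.40) to the left of the median of all genes (solid line, 0.14), with open circles for genes that were not called; Dnmt1, at 0.12, is at -0.03 when libraries are scaled to the median gene, and Zfp57, at -0.01, is at 0.05 with quantile normalization.

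Among the maintenance genes, Dnmt1 (ENSMUSG00000004099.18, chromosome 9, 20817945 to 20871184, minus strand in GRCm39) had an FPKM of 182 and 190 in NSN and 198 and 207 in SN. The SN values were the higher ones without overlap, but the gap between the groups was about as wide as the gap within each of them. The mean was 186 ± 5.63 in NSN and 202 ± 6.61 in SN (SD, n = 2 each), a log2 difference of 0.12 with a 95% interval from -0.05 to 0.30 (limma, adjusted p = 0.3), and its direction turned to -0.03 when libraries were scaled to the median gene. These values rest on 19976 to 23493 read pairs per library, so counting error is small beside the spread.

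Uhrf1 (ENSMUSG00000001228.16, chromosome 17, 56610275 to 56630489, plus strand), the hemimethylation reader that recruits Dnmt1, had an FPKM of 101 and 96.1 in NSN and 93.3 and 92.0 in SN. The SN libraries were the lower ones, and the step between the groups was smaller than the range within NSN. The log2 difference was -0.09 with an interval from -0.27 to 0.09 (limma, adjusted p = 0.46). The ratio of Dnmt1 to Uhrf1 within a library was 1.81 and 1.98 in NSN and 2.12 and 2.25 in SN, 1.15-fold higher in SN and without overlap.

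All 3 de novo genes had their lower levels in both SN libraries, in different amounts, as did 17.5% of all listed genes. None of the 3 passed the test. Dnmt3a (ENSMUSG00000020661.18, chromosome 12, 3856007 to 3964443, plus strand), the catalytic enzyme of the oocyte, had an FPKM of 8.71 and 8.14 in NSN and 7.77 and 7.35 in SN. Its log2 difference was -0.15 with an interval from -0.41 to 0.12 (limma, adjusted p = 0.4). Dnmt3b (ENSMUSG00000027478.17, chromosome 2, 153490861 to 153529650, plus strand), whose main part in methylation is in the embryo, had an FPKM of 1.2 and 1.51 in NSN and 1.04 and 0.938 in SN. Only 73 to 117 read pairs per library lay behind these values, and the log2 difference of -0.31 had an interval from -0.73 to 0.11 (limma, adjusted p = 0.27).

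Dnmt3l (ENSMUSG00000000730.15, chromosome 10, 77877781 to 77899456, plus strand), the cofactor that stimulates Dnmt3a, had the largest negative log2 difference of the 8 tested genes, although the ratio of the group means was lower still for the sparsely covered Dnmt3b (0.732 against 0.754). Its FPKM was 13.3 and 13.9 in NSN and 11.3 and 9.18 in SN, from 616, 666, 516 and 441 read pairs. The NSN pair was tight and the SN pair was spread, with the second SN library the lowest. The mean was 13.6 ± 0.476 in NSN and 10.2 ± 1.52 in SN (SD, n = 2 each), a log2 difference of -0.40 (SE 0.13, 95% interval -0.70 to -0.09), with an unadjusted p of 0.019 and a limma adjusted p of 0.094.

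Summed over Dnmt3a, Dnmt3b and Dnmt3l, the de novo FPKM was 23.2 and 23.6 in NSN and 20.1 and 17.5 in SN, 0.805 of the NSN level. The makeup of this sum was compared by ratios formed after the values were seen. Dnmt3a stood at 0.657 and 0.584 of Dnmt3l in NSN and at 0.686 and 0.801 in SN, and at 7.29 and 5.39 times Dnmt3b in NSN against 7.45 and 7.84 times in SN. Neither ratio overlapped between the groups, although for each the nearest NSN and SN libraries were close.

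Of the erasers, Tet3 accounted for 98.2% and 98.7% of the summed Tet FPKM in NSN and for 98.7% and 98.9% in SN. Tet3 (ENSMUSG00000034832.16, chromosome 6, 83339355 to 83436066, minus strand) is the Tet enzyme that the oocyte stores and that oxidises methylcytosine in the zygote. Its FPKM was 33.6 and 40.5 in NSN and 55.2 and 47.5 in SN, from 6870, 8511, 11069 and 10039 read pairs. Both SN libraries were above both NSN libraries, and the step from the higher NSN to the lower SN library was about as wide as the range within each group. The mean was 37.0 ± 4.85 in NSN and 51.4 ± 5.46 in SN (SD, n = 2 each), 1.39-fold higher in SN. The log2 difference was 0.47 (SE 0.12, 95% interval 0.17 to 0.76), with an unadjusted p of 0.0074 and a limma adjusted p of 0.063.

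Whether Tet3 was called depended on the setting, with adjusted p from 0.0058 to 0.36 over the alternatives. It was called when the genes tested were limited to a mean FPKM of 5 or more (limma, adjusted p = 0.025), under which 27.1% of the 5519 genes tested were called. It was also called when an FPKM of at least 0.5 was asked of every library (limma, adjusted p = 0.049), where 11.8% of genes were called, and without NSN replicate 2 (log2 difference 0.60, limma adjusted p = 0.023), where 14.4% were. With the threshold at 0.1, Tet3 and Dnmt3l were called, as were 20.3% of all genes. In a count model, limma's voom on the read pairs recovered from the FPKM, both Tet3 (adjusted p = 0.0058) and Dnmt3l (-0.42, 0.04) were called, where 19.7% of all genes were. With the same model and libraries scaled to the median gene, where 14.6% of all genes were called, Tet3 (0.32, 0.048), Dnmt3l (-0.57, 0.012) and Dppa3 (-0.28, 0.039) were called. The adjusted p of Dnmt3l ran from 0.012 to 0.14 over the settings that kept all libraries and from 0.1 to 0.34 with 1 library left out.

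Values were higher in SN most often among the longest genes, to which Tet3 belongs. The recovered length of Tet3 was 11739 bases, and among the 269 tested genes of 10000 bases or more the median log2 difference was 0.27 and 84.8% were above 0, against 0.10 and 62.9% of the 7718 genes of at least 1000 and under 5000 bases. The 1880 genes between these classes had a median of 0.22 with 77.7% above 0, and the 1795 genes under 1000 bases a median of 0.19 with 68.7% above 0. From the longest class to the shortest, 15.6%, 17.7%, 9.94% and 23.5% of genes had a larger difference than Tet3. After a correction of each library for length, the log2 difference of Tet3 was 0.19 (limma, adjusted p = 0.27), and that of Dnmt3l, at 2670 bases, was -0.46. The part of transcript length in the Tet3 result was otherwise not tested.

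**Figure D3:**
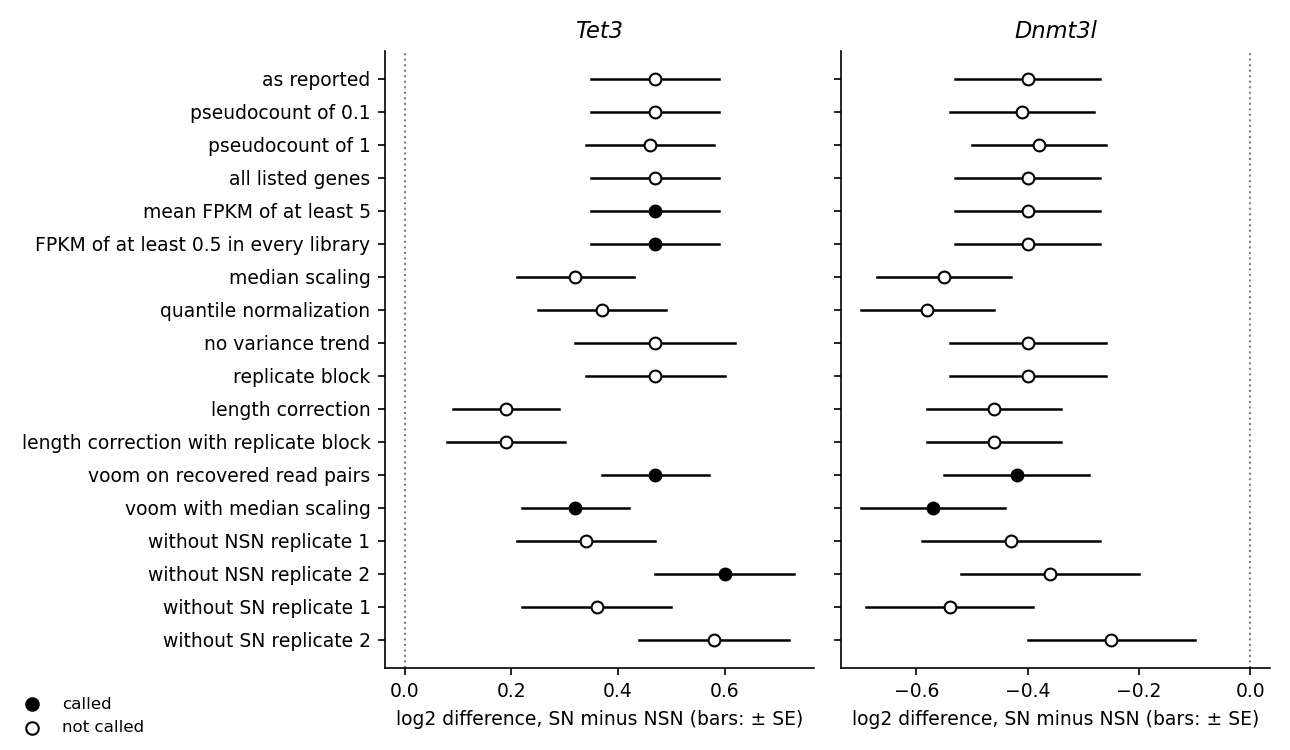
Log2 difference, SN minus NSN, of Tet3 (left) and Dnmt3l (right) with its standard error under each way of processing, filled where the gene was called at an adjusted p under 0.05. Tet3 is above 0 throughout, from 0.19 with length correction to 0.60 without NSN replicate 2, and Dnmt3l is below 0 throughout, from -0.58 with quantile normalization to -0.25 without SN replicate 2.

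The other erasers were close to the limit of the data. Tet1 (ENSMUSG00000047146.18, chromosome 10, 62640349 to 62744775, minus strand) had an FPKM of 0.511 and 0.427 in NSN and 0.513 and 0.402 in SN, from 52 to 64 read pairs, and the NSN range lay inside the SN range. Tet2 (ENSMUSG00000040943.14, chromosome 3, 133169436 to 133250900, minus strand) had an FPKM of 0.0874 and 0.103 in NSN and 0.204 and 0.145 in SN, from 14, 17, 32 and 24 read pairs. Both SN libraries were the higher ones, but neither gene reached the mean FPKM of 0.5 needed for the test. When all listed genes were tested by limma, the log2 difference of Tet2 was 0.18 (adjusted p = 0.35) and that of Tet1 was -0.02 (adjusted p = 0.96).

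Ratios of eraser to de novo writer RNA differed between the groups by a larger fold than Tet3 alone. This follows from Tet3 being higher, and all 3 de novo genes lower, in both SN libraries, so the ratios are no separate finding. The ratio of Tet3 to Dnmt3l within a library was 2.54 and 2.91 in NSN and 4.88 and 5.18 in SN, 1.85-fold higher in SN. The ratio of Tet3 to Dnmt3a was 3.86 and 4.97 in NSN and 7.11 and 6.46 in SN, and that of the summed Tet to the summed Dnmt3 FPKM was 1.48 and 1.74 against 2.78 and 2.75. For these ratios the SN libraries were well clear of the NSN libraries, and a ratio within a library is unchanged by any single factor applied to that library, though not by quantile normalization or length correction. Tet3 over Dnmt1, 0.185 and 0.213 in NSN and 0.279 and 0.229 in SN, was 1.28-fold higher in SN with a narrow gap. The ratios were formed after the values were seen, and the smallest p that an exact permutation test allows them is 0.333.

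**Figure D4:**
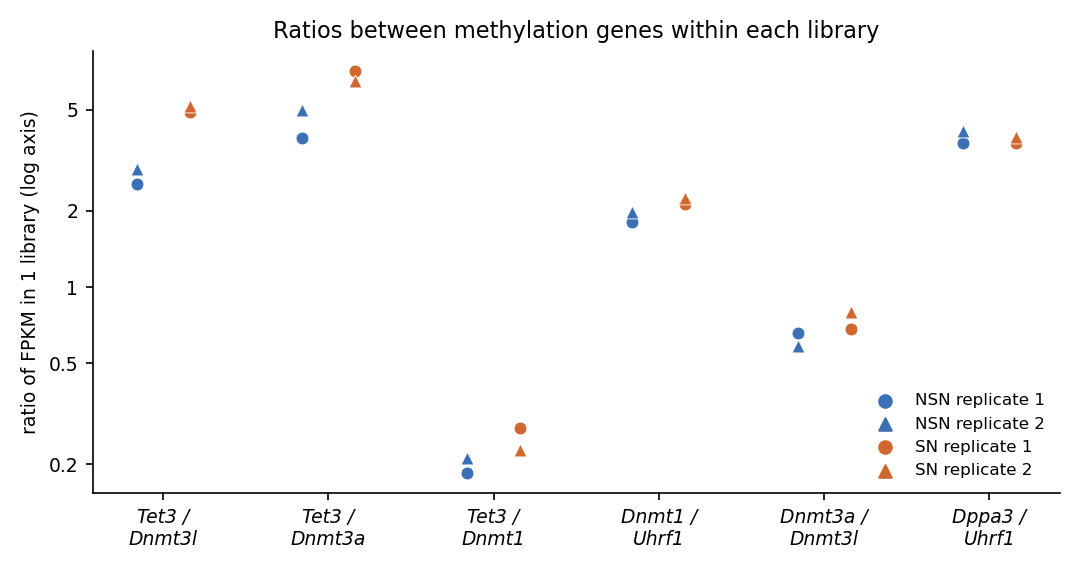
Ratio of the FPKM of 2 genes within each library (log axis), with circles for replicate 1 and triangles for replicate 2 of NSN (blue) and SN (orange) oocytes. Tet3 over Dnmt3l (2.54 and 2.91 in NSN, 4.88 and 5.18 in SN) and Tet3 over Dnmt3a are the most widely separated of the 6, and Dppa3 over Uhrf1 overlaps between the groups.

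To show the start sites of the pair of genes with the largest differences, the 300-base promoters of Tet3 and Dnmt3l are printed 5′ to 3′ from RefSeq in the older build GRCm38.p6, Tet3 at chr6:83441629-83441928 on the minus strand and Dnmt3l at chr10:78042037-78042336 on the plus strand. The capitals mark CG dinucleotides, the sites at which DNA methylation is laid down. Of the 3 Dnmt3l starts in RefSeq, the one with the most CG is shown. The FPKM do not separate starts, so which start of Tet3 or Dnmt3l was used in these oocytes is not known.
Tet3: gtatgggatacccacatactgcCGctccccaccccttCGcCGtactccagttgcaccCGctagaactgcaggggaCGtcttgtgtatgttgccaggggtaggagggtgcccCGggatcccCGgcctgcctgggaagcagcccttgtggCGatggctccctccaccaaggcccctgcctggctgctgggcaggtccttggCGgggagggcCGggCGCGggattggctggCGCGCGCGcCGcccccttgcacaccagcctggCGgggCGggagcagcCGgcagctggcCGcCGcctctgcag
Dnmt3l: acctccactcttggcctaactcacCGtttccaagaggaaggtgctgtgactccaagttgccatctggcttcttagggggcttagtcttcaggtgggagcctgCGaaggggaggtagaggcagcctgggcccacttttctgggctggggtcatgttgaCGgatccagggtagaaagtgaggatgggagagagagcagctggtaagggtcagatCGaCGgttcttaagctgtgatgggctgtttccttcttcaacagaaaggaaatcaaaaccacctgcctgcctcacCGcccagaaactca
The Tet3 promoter holds 22 CG, more than 76.9% of 32851 promoters of the same length, whose median is 7 and of which 94.6% hold at least 1. The Dnmt3l promoter holds 6, more than 43.6% of them. CG reads the same on both strands, so each site was counted once.

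Of the 10 genes, 9 had a promoter in the table, with 18 starts in all. The richest in CG was that of Tet2, with 57 (more than 99.8% of promoters), followed by a Dnmt3a start with 47 (98.6%). Dnmt1 had starts with 33, 12 and 2 CG, the last one upstream at chr9:20959839-20960138. Zfp57 had starts with 6, 9 and 4 CG. The methylation of the promoters was not analysed here.

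The protectors were abundant and differed little between the groups. Dppa3 (ENSMUSG00000046323.10, chromosome 6, 122586548 to 122607237, plus strand), which keeps Uhrf1 out of the oocyte nucleus, had an FPKM of 374 and 396 in NSN and 346 and 359 in SN. The SN libraries were the lower ones, and the log2 difference was -0.13 with an interval from -0.30 to 0.05 (limma, adjusted p = 0.27). Its call under voom with median scaling, given above, was the only one among its alternatives, whose adjusted p ran from 0.039 to 0.46. The ratio of Dppa3 to Uhrf1 was 3.71 and 4.13 in NSN and 3.71 and 3.91 in SN, so the groups overlapped. Against Tet3, Dppa3 stood at 11.1 and 9.79 in NSN and at 6.27 and 7.56 in SN, 0.661 of the NSN ratio.

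Zfp57 (ENSMUSG00000036036.17, chromosome 17, 37298936 to 37326192, plus strand), which binds methylated imprinting control regions, had an FPKM of 1496 and 1419 in NSN and 1406 and 1482 in SN, from 81194 to 90227 read pairs. The groups overlapped, and the log2 difference of -0.01 had an interval from -0.18 to 0.16 (limma, adjusted p = 0.92). Its sign followed the scaling, from -0.17 with libraries scaled to the median gene to 0.05 with quantile normalization.

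Relative to the median of all genes, only Tet3 (0.33) was above 0 among the 8 tested genes. Dnmt1 was at -0.02, Zfp57 at -0.15, Uhrf1 at -0.22, Dppa3 at -0.26, Dnmt3a at -0.28, Dnmt3b at -0.45 and Dnmt3l at -0.53. Counting ignored strand, so strand could not assign read pairs on bases that a gene shares with a neighbour. In a later GENCODE release on GRCm39, genes on the opposite strand share 17.5% of the exonic bases of Zfp57 (H2-M5 and Mog). Such genes share 12.8% of Dppa3 (Gdf3), 9.06% of Tet3 (Bola3) and 3.36% or less of the others. Whether pairs on shared bases were left out or counted, and for which gene, was not tested.

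Around the 10 genes, 44 further genes of the pathway were examined, a list chosen with earlier results of these data known. Of these, 42 were listed (not Zbtb4 and Ctcfl) and 34 tested. Of these 34, 4 were called, 2 higher in SN (Usp7, Setdb1) and 2 lower (Cdca7, Kdm1b), beside the 5.95% and 1.98% of all genes given above. The median log2 difference of the 34 was 0.19, near the 0.14 of all genes, and 29 of the 42 listed genes did not overlap between the groups, 17 higher and 12 lower in SN, beside 55.5% of all listed genes, 38% higher and 17.5% lower. An unadjusted p under 0.05 was reached by 17 of the 34, against 31.7% of all genes. With median scaling it was reached by 12, against 27.1% of all genes. With quantile normalization it was reached by 10, against 3158 of all 11672 genes tested.

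Of the 5 tested maintenance partners, 1 was called in each direction. Usp7, a deubiquitinase that binds Dnmt1 and Uhrf1, had an FPKM of 38.4 and 47.7 in NSN and 62.2 and 60.7 in SN, a log2 difference of 0.52 (SE 0.12, limma adjusted p = 0.048). Cdca7, which partners the remodeller Hells, had 3.44 and 2.81 in NSN and 1.64 and 0.825 in SN, a log2 difference of -1.10 (SE 0.25, limma adjusted p = 0.049). The SN libraries of Cdca7 themselves differed widely and held 68 and 36 read pairs, against 145 and 122 in NSN.

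Of the 4 tested genes that protect imprints beside Zfp57, 1 was called. Setdb1, the H3K9 methyltransferase that works with Trim28 and Zfp57, had an FPKM of 21.2 and 23.3 in NSN and 33.8 and 30.6 in SN, a log2 difference of 0.52 (SE 0.10, limma adjusted p = 0.041). Of the 4 chromatin enzymes on which oocyte methylation depends, 1 was called. Kdm1b, the H3K4 demethylase needed for methylation of several maternal imprints, had 27.7 and 24.1 in NSN and 15.5 and 10.2 in SN. The SN mean was 0.496 of the NSN level, a log2 difference of -1.01 (SE 0.19, limma adjusted p = 0.041).

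None of the other pathway groups held a call. The highest-level gene of the 9 tested in base excision was Neil3, a DNA glycosylase, with an FPKM of 320 and 358 in NSN and 374 and 391 in SN (log2 difference 0.18, limma adjusted p = 0.19). Among the 5 tested readers it was Mbd2, with 2.46 and 2.92 against 3.44 and 3.86 (0.38, adjusted p = 0.14), and the only other methyltransferase relative tested was Trdmt1, an RNA methyltransferase, with 2.82 and 2.87 against 3.87 and 5.19 (0.57, adjusted p = 0.076). Of the 6 tested genes for methyl donor and Tet cofactor supply, 4 had an unadjusted p under 0.05 with a lower and 1 with a higher level in SN, where 7.86% and 23.8% of all genes did. The most abundant of them, Mat2b, a regulatory subunit in S-adenosylmethionine synthesis, had 1757 and 1675 in NSN and 1505 and 1433 in SN (-0.22, adjusted p = 0.087).

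The 4 pathway calls depended on single libraries and on scaling. Calls were lost with some libraries left out, among these 4 and over all genes alike. With 1 library left out, the log2 difference ran from 0.36 to 0.67 for Usp7 and from 0.45 to 0.60 for Setdb1. It ran from -1.45 to -0.75 for Cdca7 and from -1.30 to -0.72 for Kdm1b. With libraries scaled to the median gene, only Kdm1b was called (-1.16, limma adjusted p = 0.049), while Usp7 stood at 0.36 (0.087), Setdb1 at 0.37 (0.071) and Cdca7 at -1.22 (0.06). Over all alternatives that kept every library the adjusted p of Kdm1b ran from 0.001 to 0.092, that of Usp7 from 0.0038 to 0.14, that of Setdb1 from 0.0029 to 0.13 and that of Cdca7 from 0.0048 to 0.094.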

How the data were processed

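RNA was measured in 2 NSN and 2 SN libraries of 15 oocytes. According to their methods and the labels, the authors trimmed reads with Trim Galore 0.6.10, mapped them to GRCm39 with HISAT2 2.2.0, counted read pairs on exons of GENCODE genes with featureCounts 2.0.6 (mapping quality of at least 10, primary alignments, no strand) and converted the counts with their own script. The deposited values are FPKM per gene, and the counts tested by the authors with DESeq2 1.40.1 were not used here. The labels speak of 3 samples per group, of which 2 per group were analysed here.

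FPKM were taken as log2(FPKM + 0.5), so folds of low genes are understated. Genes whose FPKM averaged 0.5 or more were fitted with limma 3.58.1 in R 4.3.3 (lmFit, eBayes with a variance trend, two-sided, no covariates). The thresholds are those stated for the study's own comparison. Read pairs were recovered from the FPKM: totals came from 20 mitochondrial genes of known length, and 16844 genes (99.9%) then gave whole read pairs in all libraries to within 1e-05. They are the smallest whole numbers that fit the FPKM. Listed genes held 98.17% to 98.24% of the totals. Ratios, positions and promoters were computed with Python 3.11.15, pandas 2.3.3 and numpy 2.4.6, and plots with matplotlib 3.10.9. The scripts were tested on simulated data.

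The genes and the pathway list were chosen with earlier results of these data known. The text names all 10 genes and, of the pathway list, every gene called and the gene of the highest mean FPKM in each group. Alternatives covered the pseudocount, filter, scaling, variance model, thresholds, length correction, replicate block, voom on read pairs, and each library left out. Protein sequences were not used here.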

Additional observations from a re-analysis of the deposited data

How the results depend on the processing

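Of the 8 tested genes, 6 kept their direction under every alternative and 2, Dnmt1 and Zfp57, did not. Beside the 0 of 10 genes called, 1 was called with the filter raised to 5 or set at 0.5 for every library, 2 with voom or with the threshold at 0.1, and 3 with voom and median scaling; with 1 library left out it was 0 to 1. Of the 4 called pathway genes, the count became 2 with a pseudocount of 0.1, 0 over all listed genes, 1 with median scaling or quantile normalization, 0 without a variance trend, 0 with length correction (with and without the block), 11 with voom, 9 with voom and median scaling, 2 at a fold of 2 or more, and 9 with the threshold at 0.1; with 1 library left out it was 0 to 6. The 926 calls over all genes became 0 over all listed genes (4092 at an unadjusted p under 0.05), 1496 with the filter raised to 5, 257 with median scaling, 230 with quantile normalization, 0 without a variance trend (3449 unadjusted), 143 with length correction, 2292 with voom, 1704 with voom and median scaling, 76 at a fold of 2 or more and 2370 with the threshold at 0.1. They were 0 without NSN replicate 1, 1685 without NSN replicate 2, 148 without SN replicate 1 and 11 without SN replicate 2. The cause was not tested. The share of calls higher in SN, 75.1%, became 30.4% with median scaling, 32.2% with quantile normalization, 29.4% with length correction, 43.6% with voom and median scaling, 63% with the replicate block, 46.1% at a fold of 2 or more, 34.5% without SN replicate 1 and 36.4% (4 of 11 calls) without SN replicate 2. The log2 difference of Dnmt1 turned to -0.03 with median scaling, with limma or voom, and to -0.09 with length correction, with or without the block, and that of Zfp57 turned to 0.05 with quantile normalization and ran from -0.05 to 0.02 with 1 library left out, above 0 without NSN replicate 1 or SN replicate 1.

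The replicate numbers pair no samples that the labels tie together, and the differences between replicates of NSN and SN did not run together across genes (correlation -0.0703). With the replicate block, 422 genes were called over all genes, 2 in the pathway list and 0 of the 10 genes, and with length correction and the block 0 over all genes (2794 at an unadjusted p under 0.05).

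With 2 libraries per group, the 95% interval of Zfp57 was the only one of the 8 that held no 1.2-fold difference in either direction, and Tet1 and Tet2, at 14 to 64 read pairs per library, were under the filter. A left-out library leaves a lone library that is assumed to vary like the other group.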
